A study of Drosophila melanogaster with 62 samples.

Results

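Cytoplasmic ribosomal protein genes encode the protein parts of the ribosome that translates messages made in the nucleus. The proteins of the small subunit (RpS genes and sta) help to read the message, those of the large subunit (RpL genes) surround the peptide-forming centre, and RpLP0, RpLP1 and RpLP2 form the stalk that recruits translation factors. In animals the genes are transcribed strongly in growing cells and their messages are short and stable. A fly egg is loaded with these messages by the mother's nurse cells, and many fly ribosomal protein genes are known as Minutes because loss of 1 of the copies a diploid fly carries delays growth.

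The members were all counted genes whose FlyBase symbol begins with RpL or RpS followed by a number, with RpLP0, RpLP1, RpLP2 and sta, and without the mitochondrial set. The rule found 92 of the 17753 counted genes, 39 of the small subunit, 50 of the large subunit and 3 of the stalk. Of these, 67 had no second copy among the members, 12 were the main copy of a protein with further copies, and 13 were such second copies.

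Gene expression was counted in hand-sorted embryos of Drosophila melanogaster after depletion of enzymes that add acetyl groups to histones and other proteins, or remove them. The acetyltransferases were Nejire (the fly CBP/p300 protein), Gcn5 (the catalytic subunit of SAGA-type complexes) and Enok (a MYST-family enzyme), and the deacetylases were HDAC1, HDAC3 and HDAC6. Stage 2 embryos, in which nearly all RNA comes from the mother, and stage 5 embryos, in which the zygotic genome has become active, were collected in pools of 20 per replicate. A main set held control embryos and embryos with Nejire, Gcn5, HDAC1 or HDAC3 knockdown, with 3 libraries in each group except Gcn5 knockdown at stage 5, which had 2. A second set, labelled batch1, held its own controls (3 libraries at stage 2 and 4 at stage 5) and Enok and HDAC6 knockdown embryos (2 libraries in each group). Rescue embryos at stage 5 carried the Nejire or Gcn5 knockdown together with a wild type or a catalytic dead form of the same protein, with 3 libraries per group. Nuclear RNA with ERCC spike-in RNA came from nuclei of 300 stage 5 embryos per replicate, in 3 control and 3 Nejire knockdown libraries. By the library names each total RNA knockdown had a parent stock of its own, different from that of the controls, and all of these were crossed to a common stock, so that the knockdown and the line it was made in cannot be told apart. The rescues were other crosses, in which the wild type and catalytic dead forms of a protein shared a parent stock. For Gcn5 that stock has the number of the parent stock of the Gcn5 knockdown. For Nejire it differs from that of the Nejire knockdown. The names of the nuclear libraries give no cross. The labels give neither the driver nor the construct of the knockdowns. The batch1 controls pool libraries named Ctrl-KD and CtrlAc-KD, which name the same cross.

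The 56 total RNA libraries held 2.45 to 40.4 M counts and the 6 nuclear libraries 14.8 to 20.7 M. The targeted gene was lower in every knockdown library than in every control for nej (28.96% of the control mean at stage 2 and 25.8% at stage 5), Gcn5 (0.101% and 13.4%), HDAC1 (0.358% and 22.4%), enok (2.68% and 21.3%) and HDAC6 (0.794% and 35.7%). HDAC3 had 0 counts in all 62 libraries and could not be checked. Eggshell markers, a sign of the mother's follicle cells, summed to 109 CPM (counts scaled to the depth of the library) in replicate 1 of Gcn5 knockdown at stage 5 and to 6.06 in replicate 2, and to at most 3.13 in the other total RNA libraries. Testis and fat body markers summed to at most 2.32 and 2.197 CPM there. Late neural and muscle markers reached 243 CPM. Among the 12 eggshell, 6 testis, 8 neural and muscle and 5 fat body markers, 1 testis gene had no count anywhere, and each sum was 0 in at least 1 total RNA library. Replicate 2 of HDAC6 knockdown at stage 5 carries conflicting stages in its labels and was used as a stage 5 library, as its title has it. CPM values beside a test are scaled within that comparison, whereas levels per kb and shares of a pair use a scaling over all total RNA libraries, and over the ERCC counts for nuclear RNA.

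In control embryos of stage 2 the members formed a strongly expressed and fairly even set. Of the 92 genes, 84 reached a mean of 5 CPM. Per kb of annotated exon their levels had a median of 1110 CPM per kb, with quartiles of 745 and 1472, so that the upper quartile was 1.98 times the lower. The 35 measured small subunit genes had a median of 1122 CPM per kb and the 46 large subunit genes 991. The stalk genes lay above both medians, with RpLP1 at 1598 ± 95.8 (SD, n = 3), RpLP2 at 1421 ± 38.8 and RpLP0 at 1255 ± 47.9 CPM per kb. None of the 3 overlapped its neighbour in this order within the SD. The stalk carries several copies of the RpLP1 and RpLP2 proteins for each RpLP0 in a ribosome.

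The highest level per kb belonged to RpL41, which encodes a very short peptide of the large subunit, at 8336 ± 618 CPM per kb (SD, n = 3). RpL39, another very small large subunit protein, followed at 2726 ± 510.1 and RpS27A, made as a fusion with ubiquitin, at 2625 ± 135. RpS3A stood at 2034 ± 140.4 and RpL23 at 2023 ± 144. RpL39 and RpS27A overlapped within their SD, and so did RpS3A and RpL23. Exon lengths of the members ran from 288 to 3835 bases with a median of 901, against a median of 2138 bases over the genes tested in the stage comparison of the same set. RpL41 (320 exon bases, chromosome 2R, 24903416 to 24903935, minus strand), RpL39 and RpL29 were the 3 measured members under 400 bases, and their level per kb depends most on the annotated length.

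RpS14b, grouped here as the main copy although it is the lower of its pair, stood at 213 ± 12.7 CPM per kb. The next lowest levels among single and main copies were those of RpS10b at 288 ± 3.82, RpL34b at 312 ± 15.0, RpL23A at 318 ± 32.1 and RpL22 at 342 ± 30.9 (SD, n = 3). RpL34b, RpL23A and RpL22 overlapped within their SD. RpL22 and RpL23A share 34% and 32% of their exon bases with another gene, and in all 12 members share over 10% with one, so their counts are uncertain. Reads of near-identical copies, such as RpS14a and RpS14b, could also be split in unknown ways by the counting.

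The order of the members per kb was nearly the same at stage 5, with a Spearman coefficient of 0.98 over the 84 members between the control groups of the main set, and 0.99 between the stage 5 controls of the main set and of batch1. These coefficients describe levels of genes within group means and carry no test. RpL41 again led, at 10623 ± 1583 CPM per kb (SD, n = 3). RpL36A moved from the 11th to the 26th place and RpL38 from the 73rd to the 77th, with RpL38 at 533 ± 96.8 CPM per kb at stage 2 and 351 ± 83.4 at stage 5.

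**Figure D1:**
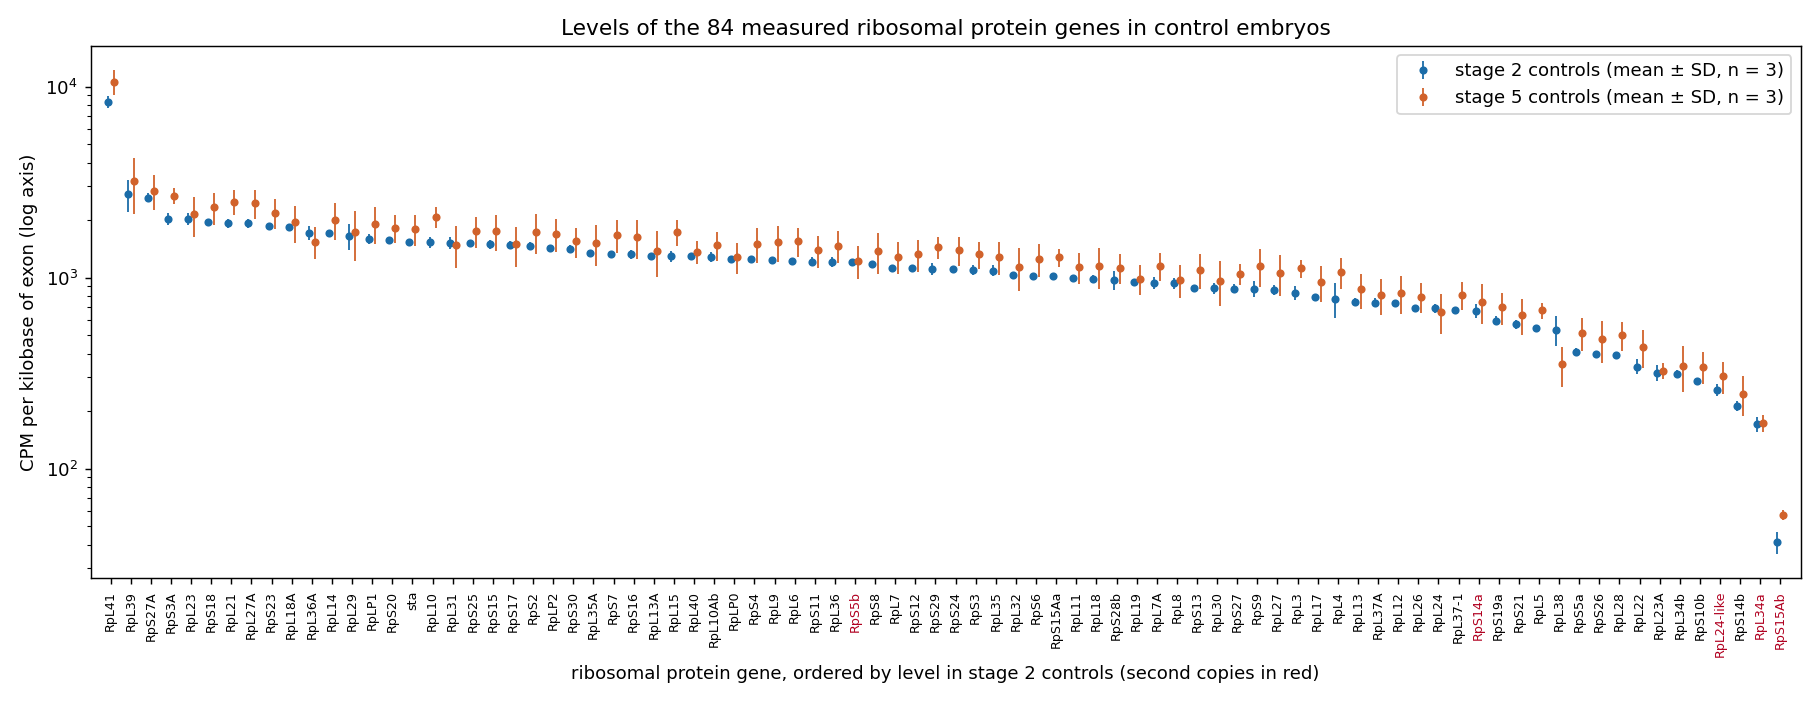
Level of each of the 84 measured ribosomal protein genes in main set controls of stage 2 (blue) and stage 5 (orange), in CPM per kb of exon on a log axis, ordered by the level at stage 2 with second copies named in red. Points are means and lines the SD of 3 libraries; RpL41 leads at 8336 and 10623 CPM per kb, and RpS15Ab is the lowest at 41.1 and 57.1.

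The 8 members under 5 CPM were all second copies, namely RpL10Aa, RpL22-like, RpL37-2, RpL7-like, RpS10a, RpS19b, RpS28-like and RpS28a. Over all 62 libraries they had 60, 143, 396, 27, 103, 453, 49 and 25 counts in that order. None was without a count in all libraries, and their highest group mean was 3.89 CPM. RpL7-like shares 99% of its exon bases with another gene. The main copy RpS19a had 469290 counts in the total RNA libraries, against 415 for RpS19b.

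Of the 5 measured second copies, RpS5b and RpS14a exceeded their partners. RpS5b, known for its expression in the female germline of the fly, stood at 1206 ± 48.1 CPM per kb and RpS5a at 409 ± 19.5 in stage 2 controls (SD, n = 3). RpS5b thus made up 74.7% ± 0.52 of the pair. RpS14a, which lies beside RpS14b on the X chromosome (7933742 to 7934677 and 7934898 to 7935792, both plus strand), stood at 667 ± 56.6 CPM per kb and had 75.8% ± 0.73 of its pair. RpL34a had 35.3% ± 1.8 of its pair, RpL24-like, known as a factor of large subunit assembly, 27.3% ± 0.32, and RpS15Ab 3.89% ± 0.55.

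At stage 5 the share of RpS5b in its pair was 69.3 to 71.5% in the 3 main controls against 74.3 to 75.3% at stage 2, and 68.8 to 70.8% in the 4 batch1 controls against 74.5 to 76.3%. The stages did not overlap in either set. RpS5b itself had 1001, 1048 and 1042 CPM at stage 2 and 967, 1362 and 1391 CPM at stage 5 in the main set, a log2 change of 0.27 ± 0.15 (SE) that did not pass (adjusted p = 0.135, edgeR). RpS5a had 503, 527 and 499 CPM at stage 2 and 599, 791 and 898 CPM at stage 5. No stage 5 library of RpS5a overlapped stage 2, and it rose by 0.58 ± 0.15 on the log2 scale (adjusted p = 0.0063, edgeR). In batch1 both copies rose, RpS5a by 0.88 ± 0.086 and RpS5b by 0.48 ± 0.089 (adjusted p = 2.5e-07 and 1.7e-04, edgeR).

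The share of a library's counts in the 92 genes had a higher group mean at stage 5 than at stage 2 in every line of the main set and batch1, whose library names begin with 2020. Main controls had 8.61, 7.99 and 7.89% at stage 2 and 8.11, 10.9 and 11.9% at stage 5. Replicate 1 of the stage 5 controls fell within the stage 2 range and the other two lay above it. Batch1 controls had 7.33, 7.64 and 6.997% at stage 2 and 9.62, 9.26, 10.6 and 10.7% at stage 5, with no overlap. The rescue embryos at stage 5 had 7.54 to 8.76% in all 12 libraries, below 6 of the 7 stage 5 control libraries of the sets of 2020. Their library names begin with 2021, so that line and date cannot be told apart.

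Among knockdowns of the main set at stage 2, the share was 8.66, 9.99 and 9.39% for Gcn5, 9.12, 9.09 and 8.91% for HDAC1, 7.57, 6.93 and 7.98% for Nejire and 7.26, 7.57 and 8.10% for HDAC3. Every Gcn5 and HDAC1 library lay above every control, while Nejire and HDAC3 reached into the control range from below. At stage 5, Gcn5 knockdown had 13.1 and 15.3%, HDAC1 13.5, 12.7 and 13.5%, HDAC3 11.9, 12.8 and 12.5%, and Nejire 12.3, 10.9 and 11.95%. All Gcn5, HDAC1 and HDAC3 libraries at stage 5 were above all 3 controls. Enok knockdown had 6.11 and 7.36% at stage 2 and 10.5 and 10.7% at stage 5, and HDAC6 knockdown 6.91 and 6.94%, then 11.1 and 8.27%. In a share of bulk RNA, more ribosomal protein messages and less of other RNA cannot be told apart, nor can fewer cells of a type and less RNA per cell.

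**Figure D2:**
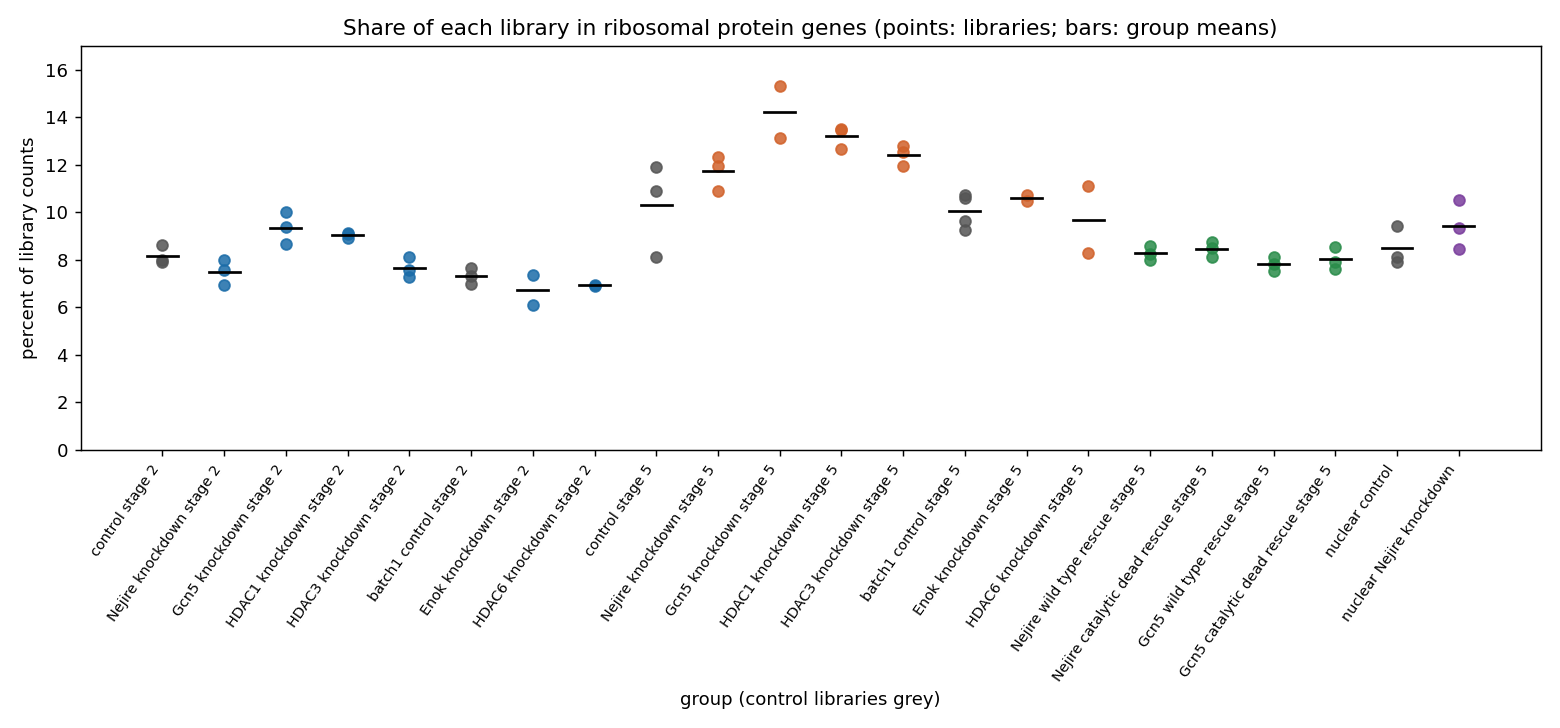
Percent of each library's counts that fell in the 92 ribosomal protein genes, with 1 point per library, a bar at each group mean and control libraries in grey, ordered as stage 2, stage 5, rescue and nuclear groups. The 2 Gcn5 knockdown libraries at stage 5 lie at 13.1 and 15.3%, and the 12 rescue libraries between 7.54 and 8.76%.

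Stage 5 controls were compared with stage 2 controls to see how the maternal load of ribosomal protein messages stood after genome activation. In the main set 61 of 84 tested members rose, none fell, and the median log2 change was 0.48. In the same test 42.5% of 7428 genes rose and 37.3% fell, with a median of 0.15 over all genes. Of the small subunit 31 of 35 genes rose and of the large subunit 28 of 46. In batch1 83 of 84 members rose and none fell, with a median of 0.76, where 48.9% of all tested genes rose and 38.3% fell with a median of 0.27. The 61 members that rose in the main set all rose in batch1 too, which says little, as 83 of 84 rose there. In 50 members of the main set and 82 of batch1 no stage 5 library overlapped stage 2. The share of all genes without overlap is not given here.

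RpS15Ab (chromosome 2R, 10821676 to 10822399, plus strand), the minor copy of RpS15A, had the largest rise in the main set. It had 30.7, 22.8 and 26.8 CPM at stage 2 and 44.4, 41.5 and 46.6 CPM at stage 5. The groups did not overlap, and the log2 change was 0.73 ± 0.14 (SE, adjusted p = 0.0011, edgeR's quasi-likelihood test). In batch1 it had 28.1, 27.2 and 27.4 CPM at stage 2 and 56.6, 49.8, 56.6 and 50.7 CPM at stage 5. Again every stage 5 library was higher, with a change of 0.96 ± 0.11 (adjusted p = 1.3e-06, edgeR).

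RpL4, a large subunit protein that lines the exit tunnel, had 792, 949 and 1189 CPM at stage 2 and 1282, 1855 and 1664 CPM at stage 5, and rose by 0.71 ± 0.19 (adjusted p = 0.0063, edgeR). RpL10 had 1606, 1778 and 1716 CPM and then 2377, 2828 and 3023 CPM, and rose by 0.69 ± 0.14 (adjusted p = 0.0012, edgeR). In both genes the stages did not overlap. In batch1 the largest rise belonged to RpL3, a core protein near the peptide-forming centre, with 1372, 1620.2 and 1681 CPM at stage 2 and 3008, 3100.5, 3275 and 3051 CPM at stage 5. The change was 1.00 ± 0.085 (adjusted p = 6.7e-08, edgeR), and RpL21 followed with 0.96 ± 0.094 (adjusted p = 2.7e-07).

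RpL38 of the large subunit had 571, 492 and 392 CPM at stage 2 and 283, 395 and 461 CPM at stage 5 in the main set. Its stages overlapped, and the log2 change of -0.36 ± 0.20, the lowest of the 84, did not pass (adjusted p = 0.122, edgeR). In batch1 it was also the lowest, at 0.02 ± 0.18 (adjusted p = 0.912). Of the stalk genes, RpLP1 rose by 0.51 ± 0.16 and RpLP2 by 0.50 ± 0.16 in the main set (adjusted p = 0.017 and 0.015, edgeR), whereas RpLP0 differed by 0.27 ± 0.15 (adjusted p = 0.123).

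The stage change depended on the scaling. With scaling factors taken over all total RNA libraries the median of all genes moved from 0.15 to -0.10 in the main set and from 0.27 to -0.09 in batch1, and 9 members rose and 1 fell in the main set while 72 rose in batch1. Relative to the median of all genes, the median member stood 0.33 higher under both scalings in the main set and 0.49 and 0.48 higher in batch1. A change of scaling shifts all genes nearly alike, so this gap could hardly have moved and is no check. Without control replicate 2 of stage 2, 27 members of the main set were called, without replicate 1 of stage 2, 38, and 38 with the replicate block. A test of the difference in stage change between the sets called 0 of 84 members (29.5% of all 8005 genes in either direction, 0 members at an unadjusted p under 0.05, and 2 with DESeq2).

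At stage 2, before most zygotic transcription, 39 of 84 members rose and 4 fell in Gcn5 knockdown embryos, with a median log2 difference of 0.18. In that comparison 19.2% of 6916 genes were higher and 17.6% lower. HDAC1 knockdown gave 28 rises and no falls with a median of 0.16 (8.72% of all genes higher, 7.2% lower). HDAC3 knockdown gave 1 rise and 16 falls with a median of -0.08 (8.76% higher, 8.85% lower), and Nejire knockdown 0 rises and 8 falls with a median of -0.09 (5.32% higher, 4.8% lower). The medians of all genes in these comparisons lay between -0.00 and 0.01.

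In Gcn5 knockdown at stage 2, RpL27 of the large subunit had 977, 1113 and 1135 CPM against 813, 761 and 852 CPM in controls. All knockdown libraries were higher, by 0.41 ± 0.062 on the log2 scale (adjusted p = 1.0e-04, edgeR). RpL4 rose by 0.41 ± 0.10, with 1316, 1405 and 1390.4 CPM against 866, 981 and 1236 CPM (adjusted p = 0.0052). RpL12, a protein at the base of the stalk, went the other way, with 612, 669.8 and 606 CPM against 857, 785 and 776 CPM. It fell by 0.36 ± 0.061 with no overlap (adjusted p = 2.9e-04, edgeR). RpL36A fell by 0.34 ± 0.089 and RpS6, the substrate of S6 kinase in the small subunit, fell by 0.32 ± 0.052 (adjusted p = 0.0067 and 2.3e-04, edgeR).

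In HDAC1 knockdown at stage 2, RpL7A had 1496, 1603 and 1544 CPM against 1136, 1145 and 1229.8 CPM. The groups did not overlap and the gene rose by 0.40 ± 0.054 (adjusted p = 1.1e-04, edgeR). RpL34a rose by 0.41 ± 0.078 (adjusted p = 0.0021), from 95.1 to 107 CPM in controls to 126 to 141 CPM. Without control replicate 2 of stage 2, 11 members were called in HDAC1 knockdown, and without HDAC1 knockdown replicate 2, 14.

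The falls in Nejire knockdown at stage 2 were led by RpLP0, the stalk base (chromosome 3L, 22075867 to 22077487, plus strand), with 1205, 1156 and 1225 CPM against 1625, 1585 and 1531 CPM in controls. The groups were far apart, and RpLP0 fell by 0.40 ± 0.055 (adjusted p = 1.0e-04, edgeR). RpS5a had 424, 406 and 444 CPM against 549.7, 545 and 519 CPM, and fell by 0.34 ± 0.068 (adjusted p = 0.0034, edgeR). RpS14a fell by 0.36 ± 0.094 (adjusted p = 0.019), whereas its tandem copy RpS14b differed by 0.00 ± 0.092 (adjusted p = 0.989). Leaving out 1 library gave between 4 and 11 calls, with 4 without control replicate 1 or without Nejire knockdown replicate 1, and 5 without control replicate 3 or Nejire knockdown replicate 2.

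In HDAC3 knockdown at stage 2, RpS2, at the entry of the message channel of the small subunit, had 1344, 1405 and 1295 CPM against 1695, 1678 and 1674 CPM. The 3 controls lay close together and above all knockdown libraries, and RpS2 fell by 0.32 ± 0.050 (adjusted p = 1.8e-04, edgeR). RpL23A fell by 0.34 ± 0.10 and RpL8 by 0.28 ± 0.077 (adjusted p = 0.031 and 0.019, edgeR). The 1 rise was RpS15Ab. Leaving out 1 library gave 8 to 16 calls, with 8 without HDAC3 knockdown replicate 1, 10 without control replicate 1 and 11 without control or HDAC3 knockdown replicate 3.

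Enok and HDAC6 knockdown at stage 2 gave 0 and 1 calls among 84 members, with medians of -0.14 and -0.09. Of 6702 genes, 2.16% were higher and 3.18% lower in Enok knockdown, and 2.51% higher and 0.657% lower in HDAC6 knockdown. In Enok knockdown 10 members had an unadjusted p under 0.05, 0 were called with DESeq2, and 6 fell without Enok knockdown replicate 2. In HDAC6 knockdown 32 members had both libraries below all 3 controls, and the share of all genes that did so is not given here. The 1 that passed was RpL23A, with 286 and 305 CPM against 413, 419 and 374 CPM, which fell by 0.45 ± 0.095 (adjusted p = 0.025, edgeR) and did not pass in 4 of the 5 fits that left out 1 library.

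At stage 5, 53 of 86 tested members rose in Gcn5 knockdown, 27 in HDAC1 knockdown and 19 in HDAC3 knockdown, and none fell in these 3. The median log2 differences were 0.39, 0.23 and 0.27. When 1 library was left out they ran from 0.24 (without Gcn5 knockdown replicate 2) to 0.52, from 0.10 to 0.33 and from 0.14 to 0.38, with the lowest HDAC1 and HDAC3 values without control replicate 1. Of 8236 genes, 27.4% were higher and 24.3% lower in Gcn5 knockdown, 27.5% higher and 28.5% lower in HDAC1 knockdown, and 14.4% higher and 20.4% lower in HDAC3 knockdown, with medians of all genes of 0.08, 0.03 and 0.01. Nejire knockdown gave 4 rises and 1 fall with a median of 0.17 (0.05 without control replicate 1), where 16.1% of genes were higher and 21.9% lower. All 4 comparisons share the same 3 controls. Transcript length and control replicate 1 moved with these counts.

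Marker sums of development also moved with the lines at stage 5. Markers of maternal messages cleared after genome activation (a list with bcd, osk and nanos) summed to 958 to 1430 CPM in controls, 450 to 467 in Gcn5, 569 to 657 in HDAC1, 527 to 728 in HDAC3 and 1374 to 1751 CPM in Nejire knockdown. The neural and muscle markers summed to 82.3 to 96.4 CPM in controls, 95.7 to 128 in Gcn5, 149 to 188 in HDAC1, 158 to 194 in HDAC3 and 14.7 to 26.8 CPM in Nejire knockdown. Early zygotic markers summed to 6480 to 8989 CPM in controls, 3848 to 3941 in Gcn5 and 2189 to 3517.5 CPM in HDAC1 knockdown. In HDAC3 knockdown they summed to 6168 to 6759 and in Nejire knockdown to 2226 to 3876 CPM. The 3 knockdowns with most rises thus had less RNA of the cleared list than every main control, and HDAC1 and HDAC3 knockdown more neural and muscle RNA. Early zygotic RNA was below every main control in Gcn5, HDAC1 and Nejire knockdown. The batch1 controls of stage 5 had 456 to 577 CPM of cleared and 198 to 243 CPM of neural and muscle markers. Their early zygotic markers summed to 3977.5 to 6123.5 CPM, so control sets differed too. The part of these differences in the counts was not tested.

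Transcript length varied with the knockdowns. Among genes that are no members, the Spearman coefficient of exon length with the log2 difference was -0.33 for Gcn5, -0.18 for HDAC1, -0.30 for HDAC3 and -0.09 for Nejire knockdown at stage 5, so that short transcripts were higher. Other genes of similar length (599 to 1357 exon bases, from the 10th to the 90th percentile of the members) had medians of 0.36, 0.17, 0.20 and 0.11, against 0.39, 0.23, 0.27 and 0.17 for the members. In a fit that removed a smooth trend of level on exon length per library, 12 members rose and 13 fell in Gcn5 knockdown with a median of 0.01. In HDAC1 knockdown 9 rose and 1 fell with a median of 0.02, and in HDAC3 knockdown 3 rose with a median of 0.06. In Nejire knockdown, by contrast, 48 rose and 1 fell with a median of 0.24. In that fit 23.5% of all genes rose and 25.5% fell in Gcn5 knockdown, and 26.5% and 30.7% in HDAC1 knockdown. The shares were 16.7% and 18.1% in HDAC3 knockdown and 26.98% and 20.5% in Nejire knockdown. The medians of all genes were 0.0002 for Gcn5, -0.03 for HDAC1, 0.01 for HDAC3 and 0.11 for Nejire knockdown. Since the members are themselves short and strongly expressed, the length fit removes any change they share with other short messages, and the part of length in the results was not tested beyond these values.

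At stage 2 the length fit kept most rises of Gcn5 and HDAC1 knockdown, with lower medians of 0.09 in place of 0.18 and 0.10 in place of 0.16. In Gcn5 knockdown 33 members rose and 16 fell, 31 of the rises shared with the uncorrected fit (20.6% of all genes higher, 18.6% lower). In HDAC1 knockdown 26 rose and 1 fell with 24 shared (11.2% higher, 9.34% lower). Other genes of similar length had medians of 0.10 and 0.05 there. The falls in Nejire knockdown became 10 (6 shared) and those in HDAC3 knockdown 18 (15 shared), where 6.28% and 11.1% of all genes fell. In the stage comparison of controls, the length fit gave 76 rises in the main set (48.7% of all genes higher, 35.6% lower). In batch1 it gave 70 rises and 5 falls (47.2% higher, 40.4% lower). The 5 that fell, RpL41, RpL29, RpL39, RpL36A and RpL34a, had all risen without the length fit.

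**Figure D3:**
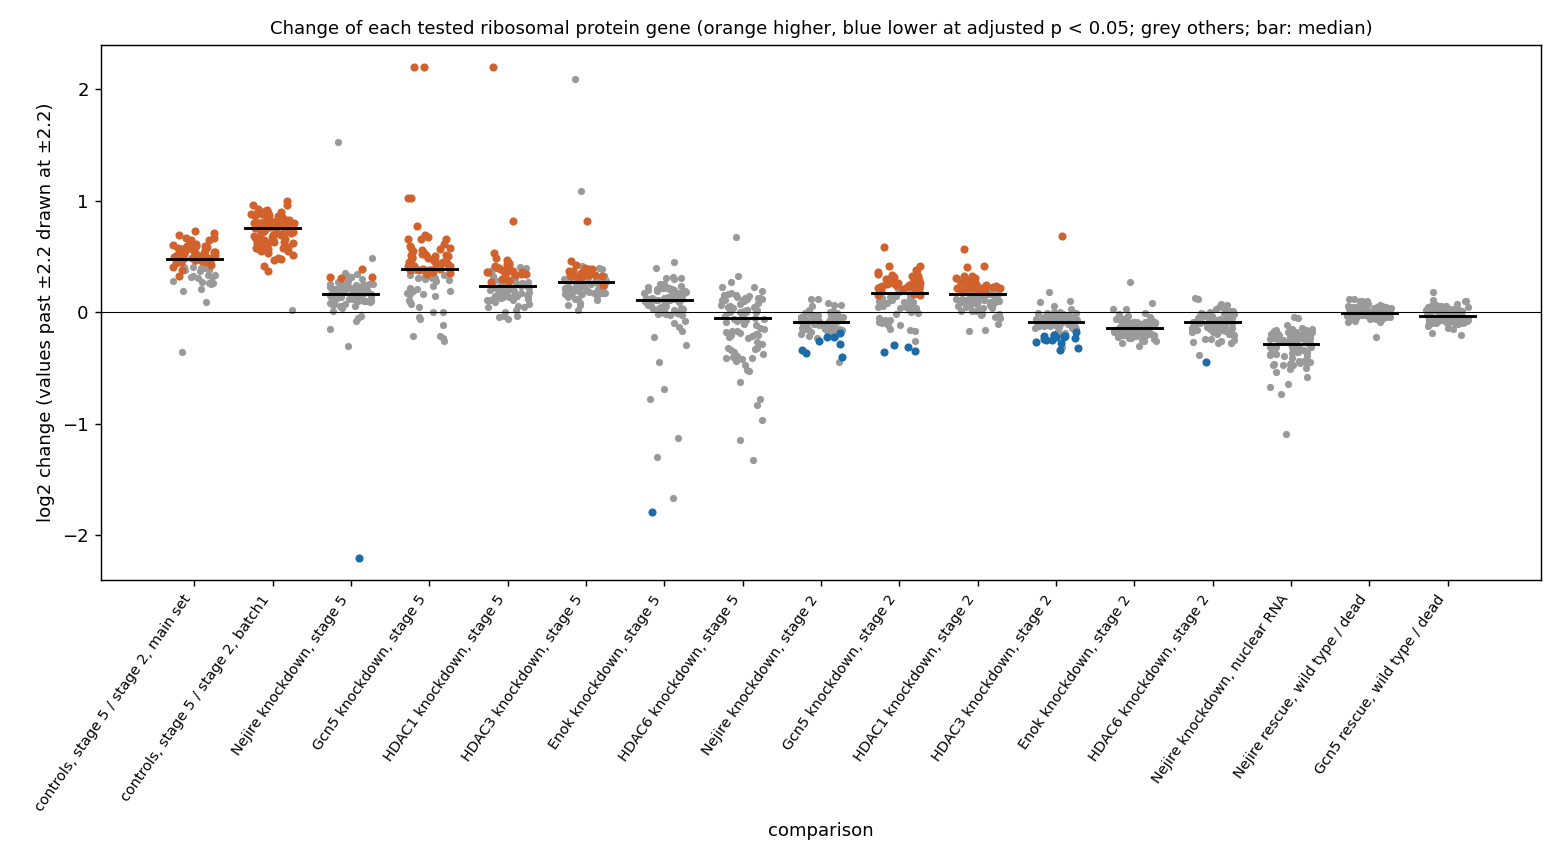
Log2 difference of every tested ribosomal protein gene in each of 17 comparisons, with 1 point per gene, orange for higher and blue for lower at an adjusted p under 0.05, grey for the others and a bar at the median of the members. A few points past the axis are drawn at its ends. The bar stands at 0.48 and 0.76 in the control stage comparisons, at 0.39 in Gcn5 knockdown at stage 5 and at -0.00 and -0.03 in the rescue comparisons.

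Replicate 1 of the stage 5 controls stood apart, with a share of ribosomal protein counts of 8.11% and a length slope of 0.08 on the log2 scale per doubling of exon length, against -0.10 and -0.14 in the other 2 controls. Without it 12 members were called in HDAC1 knockdown, 3 in HDAC3 knockdown and 1, a fall, in Nejire knockdown. Without control replicate 3 the counts were 44, 54 and 16. In Gcn5 knockdown the count stayed between 14 and 60, with 14 without Gcn5 knockdown replicate 2. Without HDAC1 knockdown replicate 1 or 3, 17 and 14 members were called, and without HDAC3 knockdown replicate 1, 2 or 3, 12, 8 and 9. Without Nejire knockdown replicate 1 no member was called and without replicate 3, 1. Length slopes were -0.23 and -0.37 in Gcn5, -0.19, -0.17 and -0.18 in HDAC1, -0.20, -0.20 and -0.23 in HDAC3 and -0.15, -0.13 and -0.13 in Nejire knockdown.

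**Figure D4:**
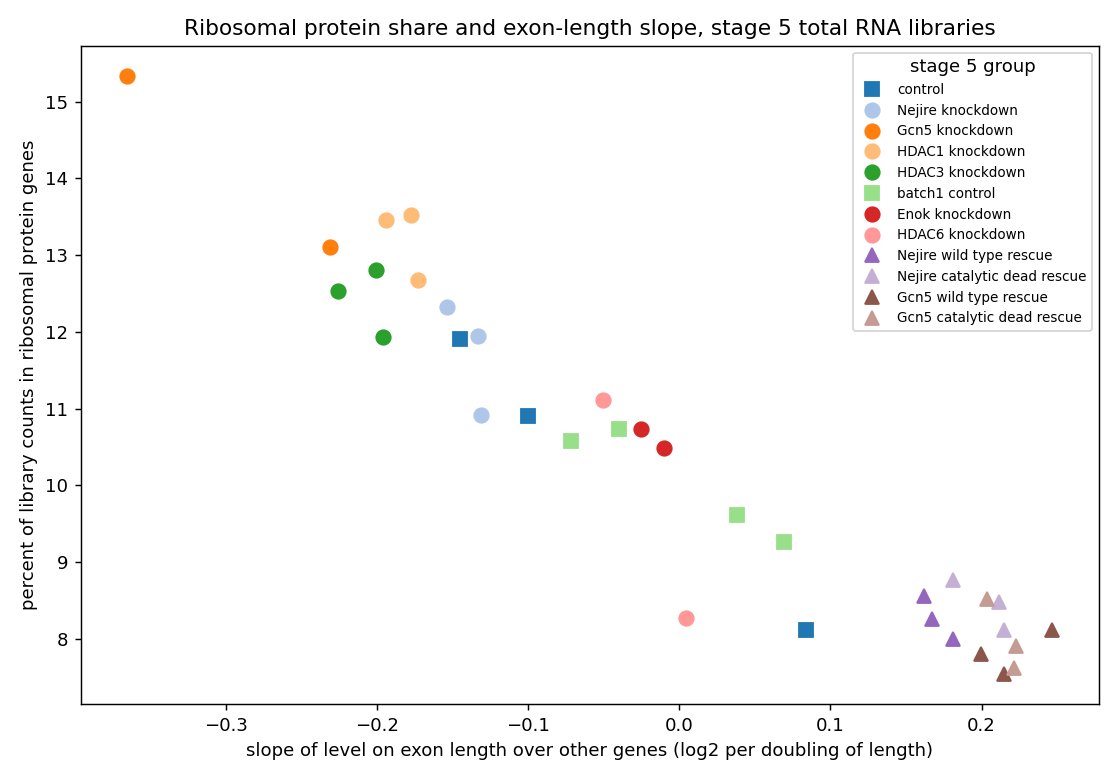
Percent of counts in ribosomal protein genes (vertical) against the slope of log2 level on log2 exon length over the other genes (horizontal, log2 per doubling of length), with 1 point per stage 5 total RNA library and a colour per group. Gcn5 knockdown lies at slopes of -0.23 and -0.37 with shares of 13.1 and 15.3%, and the rescue libraries at slopes of 0.16 to 0.25 with shares of 7.54 to 8.76%.

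RpS15Ab had the largest rise at stage 5 among members over 5 CPM in 3 knockdowns. It had 80.9 and 96.9 CPM in Gcn5 knockdown, 74.1, 76.1 and 81.0 CPM in HDAC1 knockdown, and 85.1, 68.2 and 77.7 CPM in HDAC3 knockdown, against 45.3, 41.2 and 44.7 CPM in the shared controls. Every knockdown library lay above every control. It rose by 1.03 ± 0.14 in Gcn5, 0.82 ± 0.13 in HDAC1 and 0.81 ± 0.13 in HDAC3 knockdown (adjusted p = 1.4e-05, 3.4e-05 and 1.5e-04, edgeR). In Nejire knockdown it had 37.4, 30.4 and 37.7 CPM, below all controls, with a difference of -0.31 ± 0.13 that did not pass (adjusted p = 0.074).

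The same gene had risen at stage 2, by 0.58 ± 0.14 in Gcn5, 0.57 ± 0.15 in HDAC1 and 0.68 ± 0.13 in HDAC3 knockdown (adjusted p = 0.0034, 0.017 and 0.0014, edgeR). Its stage 2 levels were 36.8, 42.97 and 45.4 CPM in Gcn5, 40.4, 37.7 and 47.7 CPM in HDAC1 and 41.1, 39.6 and 51.7 CPM in HDAC3 knockdown, against 33.6, 23.6 and 27.8 CPM in controls. All were higher than every control. In Nejire knockdown at stage 2 it had 21.02, 18.0 and 22.1 CPM, with a difference of -0.44 ± 0.15 (adjusted p = 0.068). With the length fit the rises at stage 2 and stage 5 were 0.47 and 0.54 in Gcn5, 0.49 and 0.54 in HDAC1 and 0.70 and 0.53 in HDAC3 knockdown, and all 6 passed.

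RpS15Ab took 3.33 to 4.41% of its pair with RpS15Aa in stage 2 controls and 3.90 to 4.85% in stage 5 controls of the main set. In HDAC3 knockdown it took 5.95 to 6.50% at stage 2 and 5.48 to 7.22% at stage 5, and in Gcn5 knockdown 6.03 and 6.36% at stage 5, all above the controls. The HDAC1 knockdown libraries had 5.43 to 5.95% at stage 5, also above the controls. At stage 2 Gcn5 knockdown had 4.396 to 4.89% and HDAC1 knockdown 4.19 to 5.31%, both reaching into the control range. In Nejire knockdown it took 2.84 to 2.98% at stage 2 and 2.91 to 3.25% at stage 5, all below them. In nuclear RNA it took 6.13 to 6.599% in controls and 4.30 to 5.34% in Nejire knockdown, again without overlap. The rescue groups had means between 5.83 and 7.53%.

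The nearly silent copies RpS19b and RpL37-2 also passed at stage 5. RpS19b (chromosome 3R, 23932729 to 23933530, minus strand) had 4.09 and 4.54 CPM in Gcn5 knockdown and 1.52, 3.05 and 3.66 CPM in HDAC1 knockdown, against 0, 0.634 and 0 CPM in controls. The sums behind these values were 67, 51 and 5 counts. The fitted rises of 3.75 ± 0.83 and 3.02 ± 0.84 (adjusted p = 0.0012 and 0.0053, edgeR) rest on those few counts. RpL37-2 had 2.48 and 5.34 CPM in Gcn5 knockdown against 0.553, 0.761 and 0.396 CPM, from 60 and 10 counts, and rose by 2.62 ± 0.57 (adjusted p = 0.0011). The Gcn5 libraries of stage 5 are also those with eggshell markers above all other total RNA libraries. These markers summed to 109 CPM in replicate 1 and 6.06 CPM in replicate 2, where RpS19b had 33 and 34 counts and RpL37-2 20 and 40. The part of other cells in these values was not tested.

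In Nejire knockdown at stage 5, RpL37-2 was the 1 member that passed as lower, on 2 counts among 22.9 M against 10 counts among 16.7 M. The ratio was 0.146 with an exact 95% interval of 0.0156 to 0.686 that covers counting error only. It did not pass without the low-count filter, with DESeq2 or with the replicate block. Of the rises, RpS14b had 214, 196 and 196 CPM against 118, 174 and 175 CPM and rose by 0.38 ± 0.14 (adjusted p = 0.039, edgeR). RpS29 and RpL21 each rose by 0.31 ± 0.11 (adjusted p = 0.036 and 0.032). None of these 3 passed without control replicate 1.

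RpL38 (chromosome 2R, 4515388 to 4516458, minus strand) had 535 and 982 CPM in Gcn5 knockdown at stage 5 against 288, 392 and 442 CPM in controls. Both libraries were above the controls but nearly as far from each other, and the gene rose by 1.02 ± 0.21 (adjusted p = 7.8e-04, edgeR). RpL23 had 1793 and 2401 CPM against 941, 1285 and 1445 CPM and rose by 0.78 ± 0.15 (adjusted p = 3.1e-04, edgeR). In HDAC1 knockdown RpL31 had 1386, 1312 and 1479 CPM against 714, 1125 and 1047 CPM, and rose by 0.53 ± 0.16 (adjusted p = 0.0074). In HDAC3 knockdown RpLP1 of the stalk had 2052, 2143 and 2056 CPM against 1278, 1531 and 1847 CPM and rose by 0.43 ± 0.13 (adjusted p = 0.015), which did not pass with the length fit or without control replicate 1.

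The pairs RpS5a with RpS5b and RpS14a with RpS14b differed in their shares between lines. In Gcn5 knockdown RpS5b took 61.2 and 59.9% of its pair at stage 5, below all other total RNA libraries of the main set and batch1, and 71.3 to 73.1% at stage 2, below its controls at 74.3 to 75.3%. RpS5a rose by 0.41 ± 0.13 at stage 5 (adjusted p = 0.0115, edgeR), with 926 and 1076 CPM against 611, 785 and 862 CPM, while RpS5b differed by -0.22 ± 0.12 (adjusted p = 0.154). In the Gcn5 rescues RpS5b took 60.5 to 66.7%, and in the Nejire rescues 71.0 to 74.4%. In HDAC1 knockdown its share was higher, at 77.8 to 80.3% at stage 2 and 74.0 to 74.8% at stage 5. Nejire knockdown was also above the controls, with 77.5 to 77.9% and 71.7 to 73.8%. HDAC3 knockdown was below them at stage 2, with 70.9 to 73.3%, and overlapped them at stage 5, with 69.1 to 69.7%.

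RpS14a took 69.8 to 72.4% of its pair in Nejire knockdown at stage 2 and 70.8 to 71.5% at stage 5, below the controls at 75.2 to 76.6% and 74.6 to 75.5%. In Gcn5 knockdown it took 78.1 to 78.6% at stage 2 and 77.3 to 78.4% at stage 5, above the controls. In HDAC1 knockdown it took 71.7 to 74.2% at stage 5, below them, and 72.6 to 76.1% at stage 2, which overlapped them, as HDAC3 knockdown did at both stages. In nuclear RNA it took 66.6 to 69.8% in Nejire knockdown and 73.5 to 75.6% in controls. In the Nejire rescues, with wild type or catalytic dead protein, it took 63.8 to 65.4%, and in the Gcn5 rescues 72.0 to 76.8%. These copies lie side by side and share much of their sequence, so the line and the knockdown cannot be told apart here either, and how reads were divided between the copies was not tested.

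In Enok and HDAC6 knockdown at stage 5 no member rose, and 1 and 0 fell, of 86 tested. Of 8162 genes, 1.35% were higher and 2.61% lower in Enok knockdown, and 0.833% higher and 0.588% lower in HDAC6 knockdown. The medians of the members were 0.11 and -0.05. At an unadjusted p under 0.05 there were 19 and 3 members. RpL38 had 112 and 85.1 CPM in Enok knockdown against 241, 304, 406 and 411 CPM in the batch1 controls. Both libraries lay below all controls, and it fell by 1.79 ± 0.43 (adjusted p = 0.045, edgeR), a call lost with the replicate block and in each of the 6 fits that left out 1 Enok or control library.

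The shortest members were low in both Enok knockdown libraries and in replicate 2 of HDAC6 knockdown, whereas replicate 1 lay within the control range for RpL41 and for the summed share of the 3. RpL41 had 922 and 594 CPM in Enok knockdown and 1903 and 274 CPM in HDAC6 knockdown, against 1682, 2418, 2311 and 3206 CPM in controls. The differences of -1.67 ± 0.58 and -1.14 ± 0.56 did not pass (adjusted p = 0.132 and 0.362). RpL39 differed by -1.30 ± 0.49 and -0.78 ± 0.47 (adjusted p = 0.156 and 0.473). The 3 measured members under 400 exon bases held 1.40 and 1.08% of the ribosomal protein counts in Enok knockdown, 2.74 and 0.636% in HDAC6 knockdown, and 2.68 to 4.45% in their controls. Replicate 2 of HDAC6 knockdown, the library with conflicting stage labels, was the lowest of all in these genes. With that library as the lone HDAC6 sample the median of the members was -0.45, and with replicate 1 alone it was 0.19. The lone sample is assumed to vary like the other groups, and the median of all genes in these fits is not given here.

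Nejire knockdown was also compared with controls in nuclear RNA scaled to the ERCC counts. Of 84 members 0 passed (0 at an unadjusted p under 0.05, 0 with DESeq2), with a median of -0.29 equal to that of all genes, at -0.29, while 3.52% of 9295 genes were higher and 9.91% lower. RpL41 had 1440.5, 1142 and 4497 CPM in the knockdown and 3849, 3151 and 2418 CPM in controls. Replicate 3 of the knockdown was above all controls and the other 2 below them. For each M fly counts the knockdown libraries held 282, 284 and 69.5 ERCC counts and the controls 98.5, 99.98 and 134. Without replicate 3 all 84 members fell with a median of -1.16, and without replicate 1, 1 rose. The median of all genes in the fit without replicate 3 is not given here. Members held 10.5 and 9.32% of the counts in knockdown replicates 1 and 2, against 7.90 to 9.42% in controls, so their share was not lower. With a scaling on fly genes 3 members fell and the median was 0.05. With the length fit 15 rose and 4 fell with a median of 0.09, where 30.6% of all genes were higher and 30.1% lower. On the ERCC scale replicate 3 had more early zygotic RNA, at 6545 CPM against 1015 and 1639 CPM in the other 2. Controls had 8937 to 14462 CPM. Replicate 3 was also higher in the maternal messages of the cleared list, at 3721 CPM against 1386 and 1044 CPM. Its few ERCC counts raise every level of this library on that scale, and their part in these differences was not tested.

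The level profile of the members differed between the libraries of 2020 and those of 2021. Between stage 5 controls of the main set and the Nejire wild type rescue the Spearman coefficient over 84 members was 0.73, with the Gcn5 wild type rescue 0.74, and with the nuclear controls 0.73. Between the rescue and nuclear groups of 2021 it was 0.96 to 0.98. No member differed by 2-fold, relative to the median member, between the 2 rescue groups or between them and the nuclear controls, but 10, 10 and 9 did against the main stage 5 controls.

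RpL36A (chromosome 2L, 8041873 to 8042909, minus strand) had the widest gap, with 72.6 to 112 CPM in the rescue libraries and 93.5 to 150.3 CPM in the nuclear controls against 626 to 920.4 CPM in the main stage 5 controls and 690.1 to 825 CPM in batch1. None of those rescue and nuclear control libraries reached the range of the controls of 2020. Relative to the median member this was a log2 difference of -2.78, -2.75 and -2.98 in Nejire rescue, Gcn5 rescue and nuclear controls. RpL39 differed by -1.68, -1.57 and -1.50 and RpS21 by -1.67, -1.42 and -1.40. RpL23A was higher by 1.43, 1.67 and 1.76, and RpL4 by 1.22, 1.27 and 1.26. Exon length and the difference in the Nejire rescue had a Spearman coefficient of 0.25 over the 84 members. Total RNA of the rescues and nuclear RNA shared this profile, and the date in the library names, the lines and the library making cannot be told apart.

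**Figure D5:**
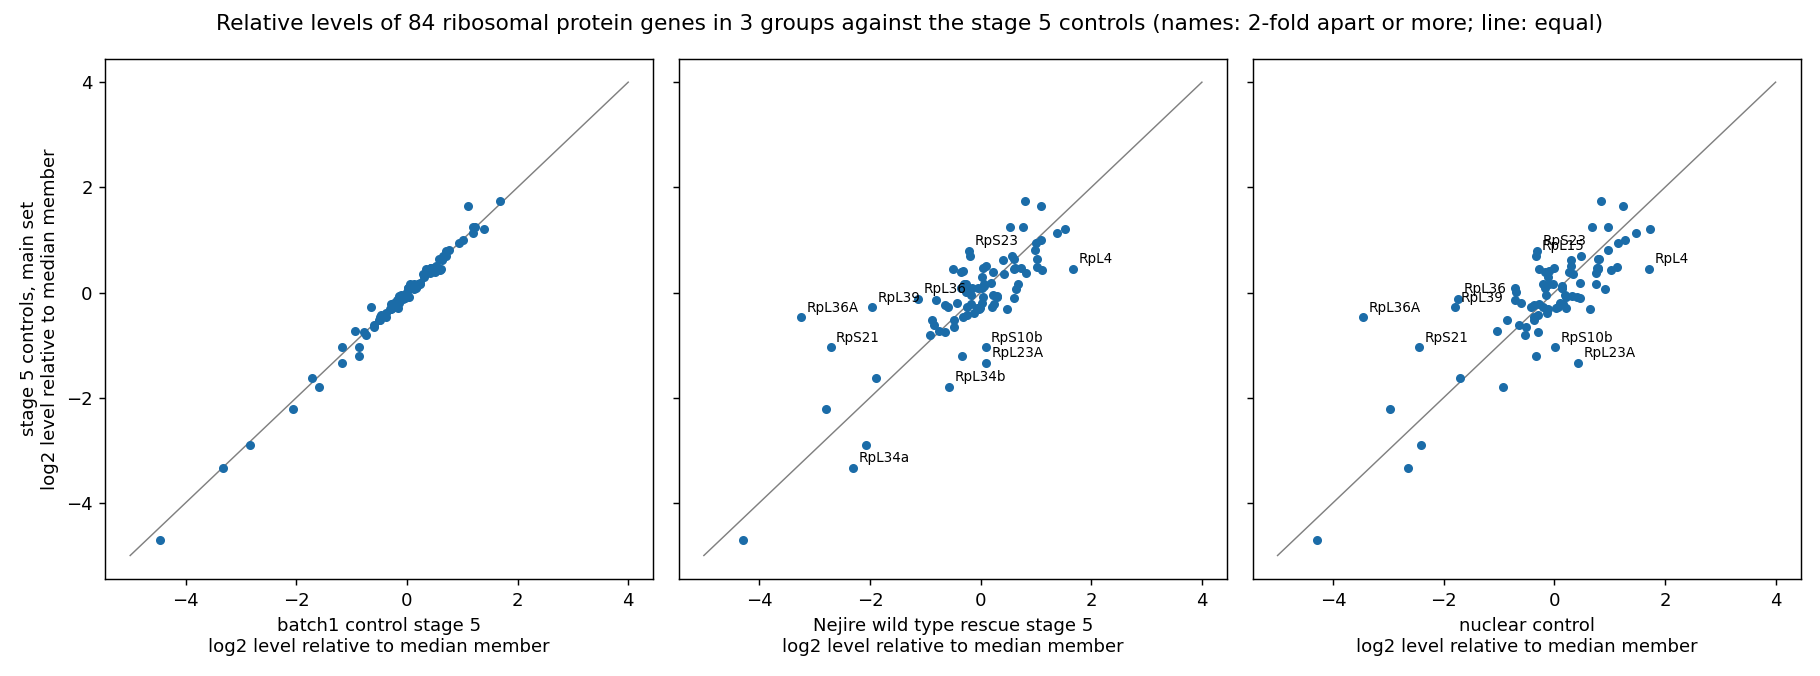
Log2 level of each of 84 ribosomal protein genes relative to the median member, with stage 5 controls of the main set on the vertical axis and, on the horizontal axes, batch1 controls, the Nejire wild type rescue and the nuclear controls; genes 2-fold apart or more are named and the line marks equal values. Points lie near the line for batch1, whereas RpL36A lies 2.78 to the left of it for the rescue and 2.98 for the nuclear controls.

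No tested member passed between wild type and catalytic dead rescues. For Nejire 0 of 85 members passed with a median of -0.00, where 0.16% of 8139 genes were higher and 0.0983% lower. For Gcn5 0 of 85 passed with a median of -0.03, where 0.0% of 8140 genes were higher and 0.0% lower. At an unadjusted p under 0.05 and with DESeq2 there were also 0 members in either comparison. RpS15Ab differed by 0.02 ± 0.094 and 0.02 ± 0.13 (adjusted p = 0.93 and 1.00, edgeR), and RpS5b in the Gcn5 rescues by 0.04 ± 0.073 (adjusted p = 1.00).

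The difference between the knockdown effects at the 2 stages was tested as an interaction. For Nejire 0 of 86 members passed (20.1% of 8675 genes in either direction, 20 members at an unadjusted p under 0.05, 0 with DESeq2), and for HDAC1 0 passed (37.4%, 2 at an unadjusted p under 0.05, 2 with DESeq2). Without replicate 3 of the stage 5 controls 16 and 5 passed for these 2 knockdowns, and without replicate 2 of them 2 in each. For Gcn5 4 members had a higher difference at stage 5 (32.0%), namely RpL38 by 0.87 ± 0.31, RpL36A by 0.50 ± 0.17, RpL23 by 0.47 ± 0.18 and RpL24-like by 0.46 ± 0.16 (adjusted p = 0.034, 0.022, 0.047 and 0.034, edgeR). For HDAC3 16 members had a higher difference at stage 5 (22.8%), from RpL24 at 0.55 ± 0.18 and RpL31 at 0.53 ± 0.18 (adjusted p = 0.023 and 0.037) to RpL40 at 0.37 ± 0.13 (adjusted p = 0.042). Both counts moved with the scaling and the filter. With RLE scaling the median of all genes moved from 0.01 to 0.18 for Gcn5 and from -0.00 to 0.12 for HDAC3, and 37 and 74 members passed. Relative to that median the members stood 0.18 higher under both scalings for Gcn5, and 0.37 and 0.38 higher for HDAC3. Since scaling shifts all genes nearly alike, these gaps could hardly have moved either. Leaving out 1 library moved both counts, to between 0 and 16 for Gcn5 and between 0 and 56 for HDAC3, with 0 for HDAC3 and 1 lower difference for Gcn5 without replicate 1 of the stage 5 controls. With the length fit 10 members had a lower difference at stage 5 for Gcn5 (17.6% of all genes) and 8 a higher one for HDAC3 (11.1%).

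Of the genes that build ribosomes, 35 ribosome biogenesis factors were tested from a list. They also rose more often than they fell with stage, 23 up and 8 down in the main set (median 0.64) and 24 up and 9 down in batch1 (median 0.83). Of all genes 42.5% rose and 37.3% fell in the main set, and 48.9% and 38.3% in batch1. In Gcn5 knockdown 23 rose and none fell at stage 2 (median 0.26), and 18 rose and 4 fell at stage 5. There 19.2% of all genes rose and 17.6% fell at stage 2, and 27.4% and 24.3% at stage 5. nop5, a box C/D snoRNP protein, rose by 0.52 ± 0.055 and NHP2, of the H/ACA snoRNPs, by 0.49 ± 0.069 at stage 2 (adjusted p = 2.2e-06 and 5.0e-05, edgeR). In HDAC1 knockdown at stage 2, in which 28 ribosomal protein genes rose, 16 of these factors fell and none rose (median -0.20). The nucleolar proteins Nopp140 and Mybbp1A fell by 0.53 ± 0.073 and 0.48 ± 0.071 (adjusted p = 1.4e-04 and 2.8e-04, edgeR). At stage 5 in HDAC1 knockdown 7 of the factors rose and 11 fell. There 27.5% of all genes rose and 28.5% fell, against 8.72% and 7.2% at stage 2. In HDAC3 knockdown 1 rose and 1 fell at stage 2 and 9 rose and 2 fell at stage 5. Of all genes 8.76% rose and 8.85% fell at stage 2 there, and 14.4% and 20.4% at stage 5. In Nejire knockdown none passed at stage 2 and 4 rose and 3 fell at stage 5. Of all genes 5.32% rose and 4.8% fell at stage 2 there, and 16.1% and 21.9% at stage 5.

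Of 10 RNA polymerase I genes, which transcribe the ribosomal RNA, 7 rose and 1 fell in Gcn5 knockdown at stage 2 and 4 rose and 2 fell at stage 5. Of all genes 19.2% and 27.4% rose and 17.6% and 24.3% fell in these 2 comparisons. Polr1E rose by 0.85 ± 0.090 and 1.07 ± 0.15 there (adjusted p = 2.4e-06 and 1.8e-05, edgeR). In HDAC1 knockdown 2 fell at stage 2 and 4 rose and 1 fell at stage 5. Of all genes 8.72% rose and 7.2% fell at stage 2 there, and 27.5% and 28.5% at stage 5. Polr1A, the largest subunit, fell by 0.46 ± 0.073 at stage 2 and rose by 1.37 ± 0.12 at stage 5 (adjusted p = 5.3e-04 and 6.2e-08, edgeR). Of the translation factors 10 of 34 rose and 2 fell in Gcn5 knockdown at stage 2 and 8 of 35 rose and 4 fell at stage 5, where 19.2% and 27.4% of all genes rose and 17.6% and 24.3% fell. Nacalpha, which binds nascent peptides at the ribosome, fell by 4.40 ± 0.20 with stage in the main controls and by 3.14 ± 0.096 in batch1, and rose by 1.53 ± 0.17 in Gcn5, 1.44 ± 0.16 in HDAC1 and 1.06 ± 0.16 in HDAC3 knockdown at stage 5 (adjusted p = 2.7e-06, 1.0e-06 and 1.2e-04, edgeR).

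Xrp1, the transcription factor known in the fly for its induction when a ribosomal protein gene is mutated, rose at stage 2 in 4 of the 6 knockdowns. It rose by 2.62 ± 0.18 in Gcn5, 1.87 ± 0.19 in Nejire, 1.69 ± 0.23 in Enok and 1.31 ± 0.24 in HDAC6 knockdown (adjusted p = 1.9e-08, 4.8e-06, 8.2e-04 and 0.012, edgeR). In those comparisons the members had 39 rises and 4 falls, 8 falls, no call and 1 fall, in that order. Dref, a factor of growth gene promoters, fell by 0.26 ± 0.053 in Gcn5 and 0.26 ± 0.055 in HDAC1 knockdown at stage 2 (adjusted p = 0.0014 and 0.0049). Myc, which drives ribosome production in growing fly tissue, fell by 0.50 ± 0.11 in Gcn5 knockdown and rose by 0.77 ± 0.11 in HDAC3 knockdown at stage 2 (adjusted p = 0.0019 and 5.3e-05).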

How the data were processed

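The deposited tables hold counts of reads per gene, whole numbers that the authors did not normalize, for 56 total RNA and 6 nuclear RNA libraries. The submitters' processing notes name bcl2fastq 2.20.0.422 and the build dm6. No aligner, counter or strand setting is given in those sources, so that overlapping and antisense genes cannot be told apart. Symbols, coordinates and exon lengths came from Ensembl release 115, which held 99.3% of the counted genes. Genes passing filterByExpr (minimum count 10, minimum total 15) were scaled by TMM and tested with the quasi-likelihood F test of edgeR 4.0.16 in R 4.3.3, with Benjamini-Hochberg adjustment over all genes tested and calls at 0.05. Knockdowns were fitted with all groups of their set and stage, control stages and rescues by their own groups, interactions over the main set, and nuclear RNA was scaled to the summed ERCC counts. Alternatives were RLE scaling, no filter, DESeq2 1.42.0, a replicate block, a length correction (lowess span 0.3), other nuclear scalings, the longest transcript as length, and each replicate left out. Scaling over all total RNA libraries was added after seeing the data.

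Members named in a comparison were the 3 largest rises and 3 largest falls that passed without overlap of the groups, members with a copy, the 5 highest and 5 lowest single or main copies per kb, and up to 3 genes of each other list by adjusted p. RpL38, RpL41, RpL39, RpL23, RpL36A, RpL31 outside those places and the stage values of the stalk genes were chosen after their values were seen. The members and lists were chosen with earlier results of these data known. Replicates are separate embryo pools by the labels. The scripts were tested on simulated data. Library totals limit the precision of the 8 members under 5 CPM most.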

Additional observations from a re-analysis of the deposited data

Results flagged for a closer look

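RpS15Ab took 4.42% of its pair with RpS15Aa in replicate 4 of the batch1 controls at stage 5, and 5.02 to 5.12% in the other 3 libraries, a gap that set this library apart. It is also the library whose label lacks the note naming it as a control for the Enok and HDAC6 knockdowns. Of 30 group values looked at in this way 1 stood out, and chance sets apart about 1 in 20.

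The effect of Gcn5 knockdown differed between stage 5 and stage 2 in 4 of 86 members by the interaction test, against 32.0% of 8675 genes, and that of HDAC3 knockdown in 16 of 86, against 22.8%, all with the higher difference at stage 5. Without replicate 1 of the stage 5 controls, 1 member (with a lower difference) passed for Gcn5 and 0 for HDAC3. Without control replicate 3 of stage 5, 16 and 56 passed. Without replicate 2 of the Gcn5 knockdown at stage 5, replicate 1 of the stage 2 controls or replicate 1 of the Gcn5 knockdown at stage 2, 0 passed for Gcn5. Without Gcn5 knockdown replicate 1 of stage 5, 13 passed, and without control replicate 2 or Gcn5 knockdown replicate 3 of stage 2, 2. For HDAC3, 42 passed without control replicate 2 of stage 5, and 29, 1 and 3 without HDAC3 knockdown replicates 1, 2 and 3 of stage 5. Without stage 2 control replicates 1, 2 and 3 there were 5, 3 and 10, and without the stage 2 HDAC3 knockdown replicates 6, 1 and 25.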

How the results depend on the processing

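With the length correction 5 members that had risen in the batch1 stage comparison fell, namely RpL41, RpL29, RpL39, RpL36A and RpL34a, and the Gcn5 interaction had 10 members lower in place of 4 higher. Of the named members' values, 185 stayed on their side of the threshold in the other alternatives and 6 lost their call, and 184 and 37 did so when a replicate was left out. The cause was not tested for any of the changes below. Members called by comparison moved as follows. With RLE scaling 8 were called in Nejire knockdown at stage 5, 3 in nuclear RNA, and 37, 1 and 74 in the Gcn5, HDAC1 and HDAC3 interactions. Without the filter on low counts 10 were called in Nejire, 35 in HDAC3, 7 in Enok and 17 in HDAC6 knockdown at stage 5, 1 in Enok and 2 in HDAC6 knockdown at stage 2, and 1, 45, 23 and 74 in the Nejire, Gcn5, HDAC1 and HDAC3 interactions. With DESeq2 2 were called in Enok knockdown at stage 5, 2 in HDAC6 knockdown at stage 2, 43, 2 and 77 in the Gcn5, HDAC1 and HDAC3 interactions, and 2 in the difference of the control stage changes. With the length correction 49, 25, 10, 3 and 2 were called in Nejire, Gcn5, HDAC1, HDAC3 and Enok knockdown at stage 5, 19 in nuclear RNA (15 higher, 4 lower), and 10, 6 and 8 in the Gcn5, HDAC1 and HDAC3 interactions, and the medians were 0.0102, 0.0181 and 0.0627 in Gcn5, HDAC1 and HDAC3 knockdown at stage 5 and 0.52 in the batch1 stage comparison. With scaling over all total RNA libraries, chosen after seeing the data, 10 were called in the main stage comparison (9 higher, 1 lower) with a median of 0.23, and the batch1 median was 0.40. With fly gene TMM 3 were called in nuclear RNA. The median level per kb was 1146 with the longest transcript as length.

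Replicate numbers are shared by groups, but in none of the 12 comparisons with 3 pairs did all pairs deviate together (correlations of -0.68 to 0.53 over all comparisons), so the numbers only name samples. With the replicate block 38 members were called in the main stage comparison, 0 in Enok knockdown at stage 5 (median 0.18), 1 in Enok and 3 in HDAC6 knockdown at stage 2, and no other count moved by over 1.5 times.

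Leaving out each replicate gave these ranges of calls: 27 to 82 for the main and 83 to 84 for the batch1 stage comparison, 0 to 16 for Nejire, 14 to 60 for Gcn5, 12 to 44 for HDAC1, 3 to 54 for HDAC3, 0 to 1 for Enok and 0 to 41 for HDAC6 knockdown at stage 5. At stage 2 they were 4 to 11 for Nejire, 30 to 44 for Gcn5, 11 to 33 for HDAC1, 8 to 16 for HDAC3, 0 to 6 for Enok and 0 to 2 for HDAC6 knockdown. They were 0 to 84 in nuclear RNA, and 0 to 16, 0 to 16, 0 to 5 and 0 to 56 for the Nejire, Gcn5, HDAC1 and HDAC3 interactions. Where a knockdown group held 2 libraries, the ranges include fits with 1 library in that group. Medians ranged from -0.45 to 0.19 in HDAC6 knockdown at stage 5, from -1.16 to 0.027 in nuclear RNA, and from -0.073 to 0.0219 in the Gcn5 rescues. Depth limits the second copies under 5 CPM most, which had 25 to 453 counts over all libraries.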
